A study of Mus musculus with 6 samples.

Results

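The matrix metalloproteinases (MMPs), the ADAM and ADAMTS proteases and their inhibitors were examined in cultured mouse cortical bone with and without parathyroid hormone (PTH). Members were all probes of an Illumina mouse bead array whose listed gene symbol begins with *Mmp*, *Adam*, *Adamts* or *Adamtsl* followed by a digit, together with *Timp1* to *Timp4* and *Reck*. This gave 138 of 45281 probes, which carry 78 of the 31508 gene symbols on the array: 23 MMPs, 32 ADAMs, 17 ADAMTSs, 1 ADAMTS-like protein and 5 inhibitors. *Adam26* is an older name of *Adam26a*, which is listed too, so the 78 symbols stand for 77 genes, and counts of members are counts of symbols. The rule used names alone and no measured value.

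The samples were bone tubes, the shafts of femur and tibia of C57BL6 mice labelled as 3 months old (2–3 months in the methods). The tubes were flushed to remove marrow and digested with collagenase and trypsin to strip their surfaces. All tubes were kept overnight in medium with serum, and then cultured for 24 h either untreated (control, 3 arrays) or with 250 nM Pth 1-34 (PTH, 3 arrays). Each RNA preparation pools bones of several mice, and the sex of the mice is not given. The labels name no transgene or mutation. The labels do not say whether arrays of a group came from separate cultures, so p-values measure the spread between these arrays, which may be technical.

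MMPs are secreted or membrane-bound zinc proteases that cut collagens and other matrix proteins, and in bone they act in matrix turnover, osteoclast migration and the remodelling of the matrix around osteocytes. ADAMs are membrane proteins, many of which release the outer part of other membrane proteins, a step called shedding. ADAMTSs are secreted and cleave proteoglycans or trim procollagens, while TIMPs and the membrane protein Reck hold these enzymes in check. Most MMPs are made as inactive proenzymes, so a transcript level is not an activity.

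Signals were corrected for background and quantile normalized, and all levels given here are normalized log2 signals of 1 probe on 1 array. A probe was tested when it was above background (detection p under 0.05) on at least 3 of the 6 arrays, and a gene was counted once, by its tested probe with the highest mean over all 6 arrays. PTH was compared with control with limma, and a gene was called at a Benjamini-Hochberg adjusted p under 0.05 over all 16214 probes tested. Different probes respond differently to the same amount of RNA, so levels are compared between arrays and not between genes.

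Between 34.2% and 38.4% of all probes were above background on an array, and no array stood apart (median r of 0.982 to 0.985 with the arrays of its own group). The osteocyte markers that define the labelled tissue were present: of 7 on the array 6 were tested, among them *Dmp1*, *Mepe*, *Phex* and *Sost*, while *Fgf23* was not. Markers of other cells were present too: 11 of 13 neutrophil markers, 6 of 9 osteoclast markers and 3 of 7 red cell markers were tested. The summed linear signal of the red cell markers was 8563 to 10017 without PTH and 2361 to 2629 with it, and that of the osteocyte markers 9403 to 10671 and 7929 to 9037 (5 of 6 log2 fold changes below 0, 3 lower on every PTH array and 1 higher). RNA came from whole tubes, so fewer cells of a type and less RNA per cell cannot be told apart.

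The promoters of a run of neighbouring MMP genes are shown first, because they carry an element that a reader of MMP data in bone will look for. In the RefSeq gene order of assembly GRCm38.p6, 10 protein-coding MMP genes follow each other on 1 chromosome without another protein-coding gene between them, in the order *Mmp13*, *Mmp12*, *Mmp1b*, *Mmp3*, *Mmp1a*, *Mmp10*, *Mmp8*, *Mmp27*, *Mmp20* and *Mmp7*. The AP-1 element, the site of Fos and Jun proteins, was searched as TGACTCA on both strands (TGAGTCA on the reverse) in the 250 bases before each gene start. It was found in 7 of these 10 promoters, against 4.46% of all 32851 promoters in the table. Neighbouring genes of 1 family may share promoter sequence, so these 10 need not be independent, and the difference was not tested. The RUNX element, searched as ACCACA on both strands, was present in 14% of all promoters, and the cAMP response element, searched as TGACGTCA, in 1.55%. The 250 bases before *Mmp13* (chr9:7272264-7272513, plus strand, GRCm38.p6, RefSeq) are given with the RUNX element and the AP-1 element in capitals.
*Mmp13*: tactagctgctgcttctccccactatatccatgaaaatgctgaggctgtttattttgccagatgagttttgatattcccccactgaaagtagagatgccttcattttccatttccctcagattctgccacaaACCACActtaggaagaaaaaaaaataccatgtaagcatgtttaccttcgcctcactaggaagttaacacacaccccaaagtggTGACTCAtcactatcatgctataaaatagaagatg

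The RUNX element of *Mmp13* covers bases 118 to 113 before the gene start and its AP-1 element bases 35 to 29. The stretch around the AP-1 element of each of the 7 genes follows, written in the direction of the gene, with the element in capitals.
*Mmp13* (chr9:7272468-7272496, plus strand): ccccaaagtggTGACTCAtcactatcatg
*Mmp12* (chr9:7347319-7347347, plus strand): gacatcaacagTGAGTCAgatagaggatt
*Mmp1b* (chr9:7388102-7388130, minus strand): gttacaaagccTGAGTCAtatagcctctg
*Mmp3* (chr9:7445765-7445793, plus strand): ggaagcaattaTGAGTCAgttttcgggtg
*Mmp1a* (chr9:7464057-7464085, plus strand): gttgtcaaccaTGAGTCAcatagcctctg
*Mmp10* (chr9:7502268-7502296, plus strand): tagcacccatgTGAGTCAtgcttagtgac
*Mmp7* (chr9:7692016-7692044, plus strand): aagtgtgcaaaTGAGTCAcctatttccac

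**Figure D1:**
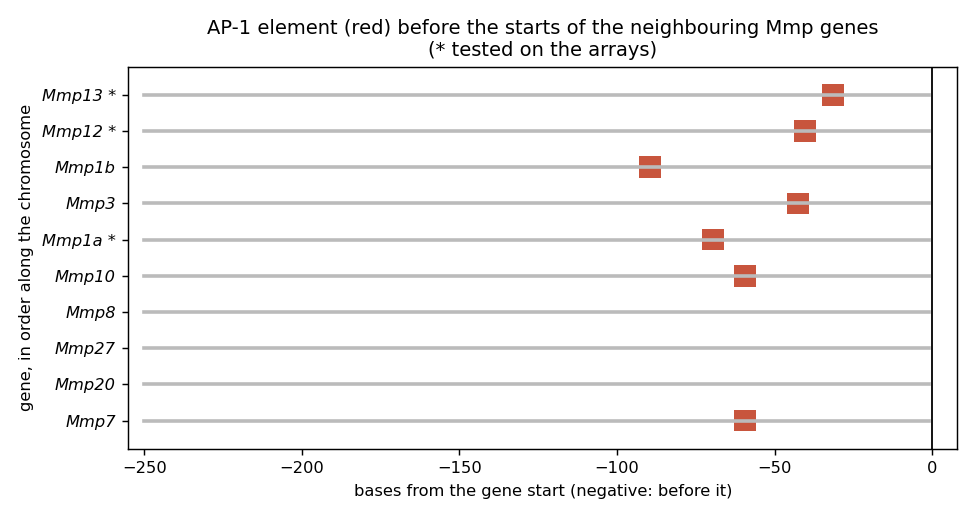
Position of the AP-1 element (red) in the 250 bases before the start of the 10 neighbouring MMP genes, in bases from the start. Genes are in chromosomal order, and a star marks the 3 genes that were tested on the arrays. The element begins between 35 and 93 bases before the start in 7 genes and was not found in *Mmp8*, *Mmp27* and *Mmp20*.

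All 10 genes are on the array, but only *Mmp13*, *Mmp12* and *Mmp1a* of this run were tested. *Mmp1b*, *Mmp3*, *Mmp7*, *Mmp8*, *Mmp20* and *Mmp27* were above background on no array, and *Mmp10* on 1. Genes with and without the element were thus among those not detected, and no probe of *Mmp3*, which has 3 on the array, passed background on any array. Of the 34 tested members 22 had a promoter in the table, *Adamts4* and *Mmp9* did not, and 4 of the 22 (18.2%) held the AP-1 element: the 3 genes of the run and *Adam19*. The RUNX element was found in 5 of the 22 (22.7%) and the cAMP response element in 0. The core of the latter, searched as TGACG on both strands, was found in 5 (22.7%, against 17.8% of all promoters). These matches describe the letters in the window and not a site in use.

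Of the 78 member symbols 34 were tested, with 45 probes between them, and 26 of the 34 were above background on all 6 arrays by the probe used. Another 12 symbols were seen on 1 or 2 arrays, and 32 were above background on none. Of the ADAMs, 7 of 9 shedding members were tested, but 2 of 18 known mainly from the testis. *Adam32*, one of these 2, is the only tested member that passed the filter without being above background on any control array.

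With PTH 2 members were called higher, *Adamts4* and *Mmp9*. These were 2 of the 34 tested, or 5.88%, where 0.685% of all 11979 genes tested were called higher. None was called lower with limma, where the share over all genes was 1.04%. At an unadjusted p under 0.05, 5 members were higher and 3 lower, or 14.7% and 8.82%, against 7.51% and 7.39% of all genes (23.5% against 14.9% in either direction). The 5 include *Adam32*, which passed the detection filter through the PTH arrays alone. The log2 fold change was above 0 for 17 and below 0 for 17, with a median of 0.014 over the members and 0.0053 over all genes. The PTH arrays all exceeded the control arrays in 7 members (20.6%, against 11.1% of all genes) and all fell short of them in 4 (11.8%, against 10.8%), which left 32.4% of members and 21.9% of all genes with groups that did not overlap.

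**Figure D2:**
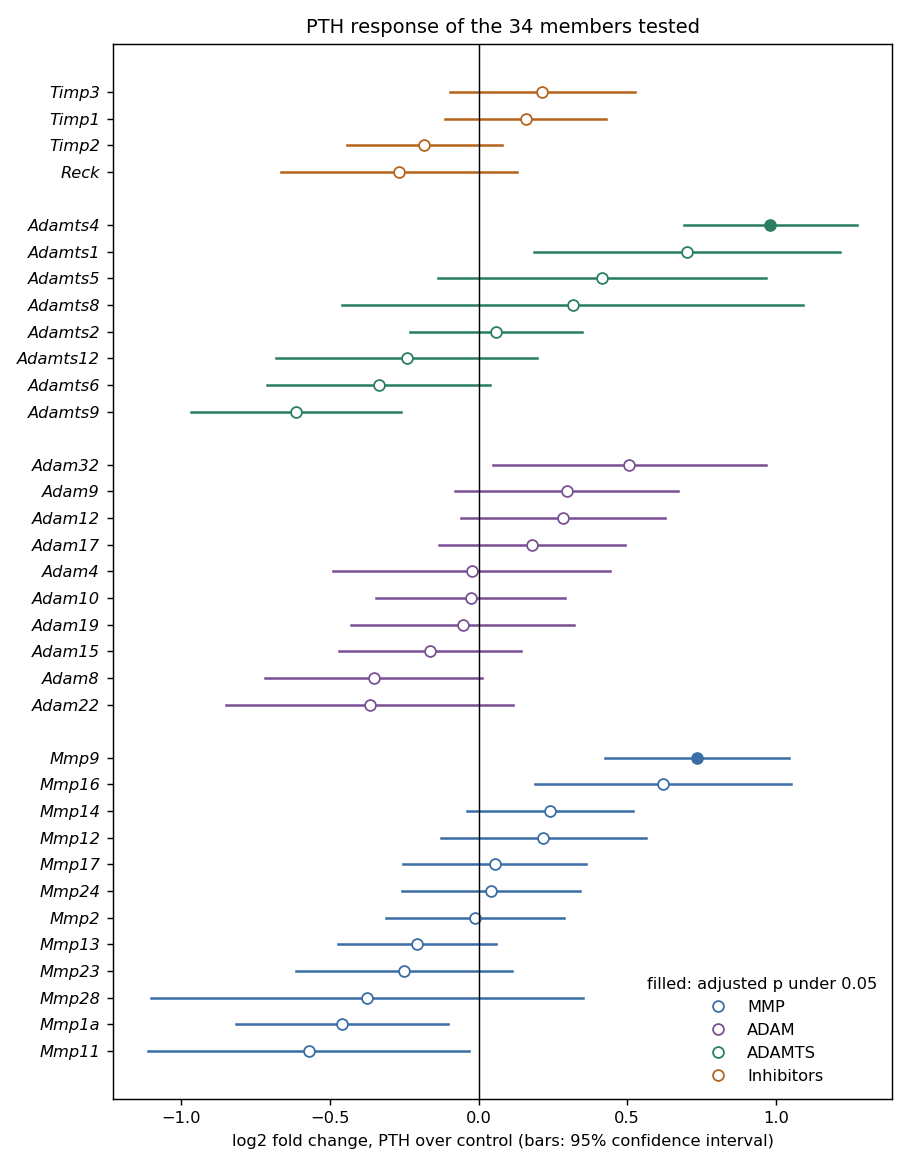
Log2 fold change of PTH over control for the 34 members tested, by family, with 95% confidence intervals from limma. Filled points are the 2 genes called, *Adamts4* at 0.98 and *Mmp9* at 0.73. The other 32 points lie between -0.61 and 0.70.

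*Adamts4*, also called aggrecanase-1, cleaves the cartilage proteoglycan aggrecan and also versican. Its single probe read 7.20, 7.27 and 7.11 in control cultures and 8.06, 8.16 and 8.30 after PTH. The groups were far apart beside their spread, with means of 7.19 ± 0.08 (SD, n = 3) and 8.17 ± 0.12 (SD, n = 3). The log2 fold change was 0.98 (SE 0.13, 95% interval 0.69 to 1.27, limma adjusted p = 0.0123), which is 1.97-fold. The change was of like size without any 1 array (0.92 to 1.04), while the adjusted p was 0.0331 without PTH replicate 1 and between 0.0514 and 0.0665 without each of the other 5 arrays, so the call was kept in 1 of 6 such fits. With the replicate number as a block the call was lost as well (limma adjusted p = 0.063).

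*Adamts1* and *Adamts5* also cleave aggrecan and versican and are close relatives of *Adamts4*. *Adamts1* read 5.26, 4.81 and 5.56 without PTH and 5.75, 5.76 and 6.23 with it. All PTH arrays were higher, but near the background, and control replicate 2 was below it. The log2 fold change of 0.70 (SE 0.22, 95% interval 0.19 to 1.21) did not pass (limma adjusted p = 0.198), and was 0.24 when the background was not corrected. Its other 2 probes were not tested. *Adamts5*, aggrecanase-2, read 7.07, 7.08 and 7.02 without PTH and 7.68, 6.89 and 7.85 with it. PTH replicate 2 lay below all control arrays and the other PTH arrays above them, and the log2 fold change was 0.42 (95% interval -0.14 to 0.97, limma adjusted p = 0.485). It was 0.71 without PTH replicate 2 (limma adjusted p = 0.106), 0.31 without PTH replicate 1 (limma adjusted p = 0.694) and 0.23 without PTH replicate 3 (limma adjusted p = 0.72).

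*Adamts9*, which cleaves versican and is widely expressed, was lower with PTH in place of higher. Its readings were 6.46, 6.78 and 6.56 without PTH and 5.99, 5.79 and 6.18 with PTH. Every PTH array was lower, with a log2 fold change of -0.61 (SE 0.15, 95% interval -0.97 to -0.26). It did not pass (limma adjusted p = 0.113), but did when only probes with a detection p under 0.01 on all 6 arrays were tested (limma adjusted p = 0.0489), and without background correction the log2 fold change was -0.27. Of the 5 tested ADAMTSs that cleave aggrecan or versican, 4 thus had a log2 fold change above 0 and 1 below, and 1 was called. *Adamts8*, the remaining one, was above background on 1 control array and 2 PTH arrays.

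None of the remaining ADAMTSs was called. *Adamts2*, which removes the amino-terminal propeptide of fibrillar procollagens, had 3 tested probes with log2 fold changes of 0.06, 0.11 and 0.22, and none passed. *Adamts12*, which cleaves cartilage oligomeric matrix protein, had a log2 fold change of -0.24 and *Adamts6* of -0.34, with overlapping groups in both. The other 9 ADAMTSs on the array and *Adamtsl1* were not tested.

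*Mmp9*, gelatinase B, cuts denatured collagen and is made in quantity by osteoclasts and neutrophils. Its single probe read 11.74, 11.88 and 11.96 in control cultures and 12.47, 12.56 and 12.75 after PTH. All PTH arrays were higher by more than the range of either group. The means were 11.86 ± 0.11 (SD, n = 3) and 12.59 ± 0.14 (SD, n = 3), which differ by 0.73 on the log2 scale (SE 0.13, 95% interval 0.43 to 1.04) or 1.66-fold. The adjusted p was 0.0433 (limma). Without any 1 array the log2 fold change stayed between 0.66 and 0.79 but the adjusted p was between 0.0873 and 0.158, so the call was lost whichever array was left out. It was also lost under median scaling (log2 fold change 0.89, limma adjusted p = 0.134) and with no detection filter (limma adjusted p = 0.0602). The same held with the replicate number as a block (limma adjusted p = 0.0779).

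**Figure D3:**
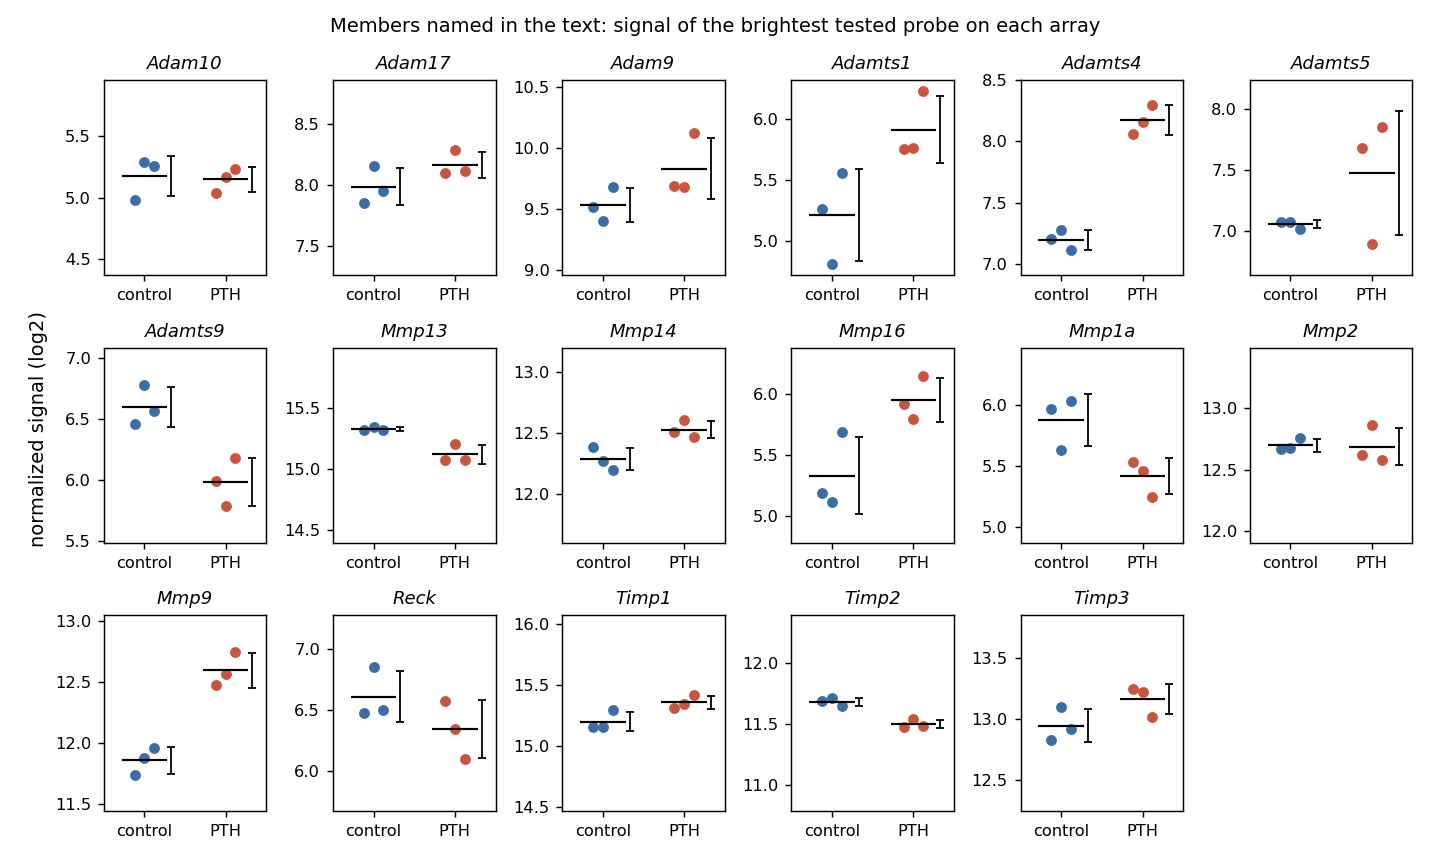
Normalized log2 signal of 17 members on each array, with 1 panel and 1 vertical axis per gene (control in blue, PTH in red, horizontal line for the group mean, bar for the SD, n = 3). In *Adamts4*, *Mmp9* and *Timp2* the gap between the groups is wider than the range of either group, although *Timp2* was not called. In *Adam10* and *Mmp2* they overlap, and *Adamts5* has 1 PTH array below the control arrays.

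Markers of the cells known to make *Mmp9* also moved. The summed linear normalized signal of the 6 tested osteoclast markers was 8774 to 10109 without PTH and 11409 to 14765 with it. Most of this sum is the signal of *Ctsk*, cathepsin K, by far the brightest of the 6 probes. Its own log2 fold change was 0.36 and did not pass (limma adjusted p = 0.328). Each of the 6 was higher on every PTH array, and 3 were called higher: *Car2*, carbonic anhydrase 2 (log2 fold change 1.37, limma adjusted p = 0.00774), *Oscar*, an osteoclast receptor (log2 fold change 1.05, limma adjusted p = 0.0297) and *Acp5*, the acid phosphatase TRAP (log2 fold change 0.84, limma adjusted p = 0.0372). The osteoclast markers *Calcr*, *Atp6v0d2* and *Itgb3* were on the array but not tested for want of signal. The neutrophil list moved the opposite way, with a summed signal of 54442 to 55394 without PTH and 34958 to 39566 with it, 6 of its 11 tested markers called lower and 0 higher. Of this list *Ela2* and *Fpr1* were not tested. The part of either cell type in the rise of *Mmp9* was not tested.

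**Figure D4:**
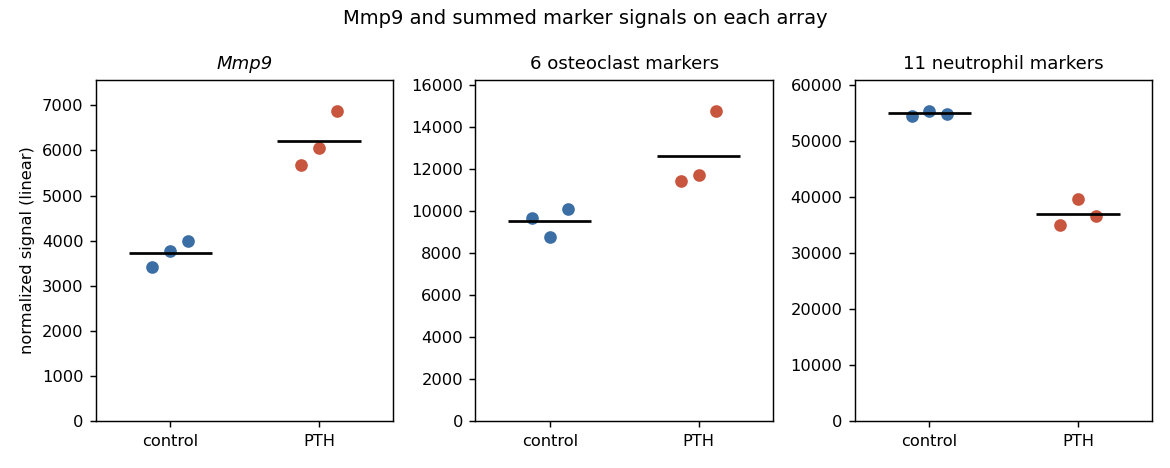
Linear normalized signal of *Mmp9* and of the sums over 6 osteoclast and 11 neutrophil markers on each array (points, with the group mean as a line). *Mmp9* and the osteoclast sum are higher on all 3 PTH arrays, and the neutrophil sum is lower on all 3. Most of the osteoclast sum is the signal of *Ctsk*.

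Other proteases known from neutrophils were little detected or did not pass. *Mmp8*, the neutrophil collagenase, and *Mmp25*, the leukocyte membrane-type MMP, were above background on no array. *Adam8*, a shedding ADAM of neutrophils, macrophages and osteoclasts, had a log2 fold change of -0.35 by its brightest probe, with overlapping groups (95% interval -0.72 to 0.01, limma adjusted p = 0.36). A second probe was lower on every PTH array, with a log2 fold change of -0.44 that did not pass (95% interval -0.80 to -0.07, limma adjusted p = 0.255).

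*Mmp2*, gelatinase A, is the other gelatinase and is made by mesenchymal cells. It read 12.67, 12.67 and 12.76 without PTH and 12.62, 12.86 and 12.58 with it. The groups overlapped, and the 95% interval of the log2 difference, -0.31 to 0.29, holds 0 and excludes a change of the size seen in *Mmp9*. The intervals of the 2 gelatinases did not meet, although the difference between them was not tested.

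*Mmp13*, collagenase 3, cleaves fibrillar collagen, is made by osteoblasts and hypertrophic cartilage cells, and is known as a gene that PTH induces in osteoblast cultures through Runx2 and AP-1. In the bone tubes none of the PTH arrays was higher by its brightest probe. This probe read 15.32, 15.34 and 15.32 without PTH and 15.08, 15.21 and 15.08 with it. All PTH arrays were lower, by a log2 fold change of -0.21 that did not pass (SE 0.12, 95% interval -0.47 to 0.06, limma adjusted p = 0.468). It is among the brightest of the array, ranking between 6 and 7 without PTH and between 13 and 17 with it, and quantile normalization gives the same value to arrays on which it has the same rank. From such ranks a rise has little room to show in the normalized values of this probe. The signals before normalization were 36912, 42296 and 40045 without PTH and 30491, 38516 and 42037 with PTH, and these overlap.

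The probes of *Mmp13* differed in sign. A second probe had a log2 fold change of -0.36 (95% interval -0.72 to 0.01, limma adjusted p = 0.349), with every PTH array lower. The remaining tested probe had 0.20 with overlapping groups (limma adjusted p = 0.703). The mean of the 3 probes gave -0.12 (limma adjusted p = 0.716). Osteoblast markers also moved: their summed signal over 6 tested markers of 7 was 27009 to 27619 without PTH and 15457 to 16377 with it, all 6 were lower on every PTH array, and 2 were called lower (*Ibsp*, bone sialoprotein, and *Sp7*, osterix). *Runx2*, of the same list, was not tested, and the part of these cells in the *Mmp13* values was not tested. Of the 8 members with several tested probes, all log2 fold changes had the same sign in 6, and the exceptions were *Mmp13* and *Mmp24*.

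**Figure D5:**
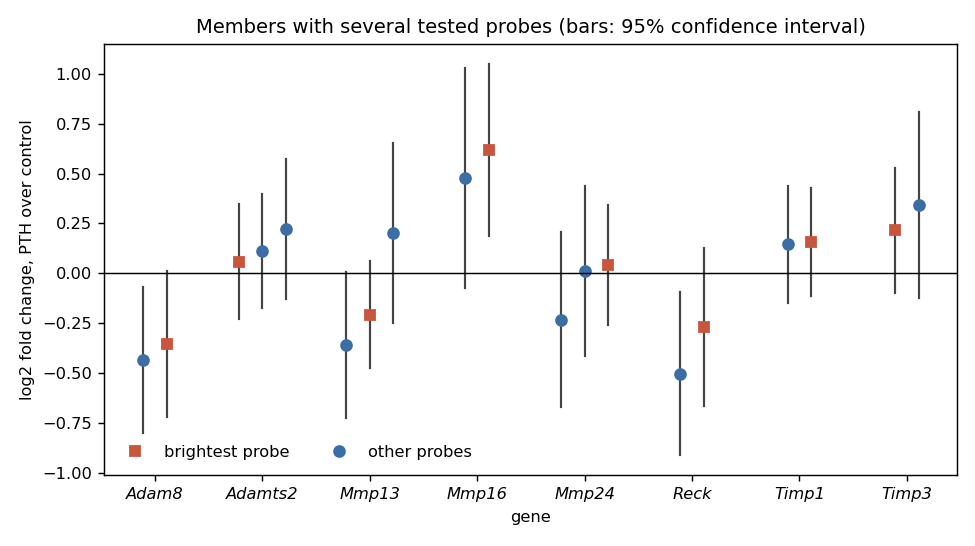
Log2 fold change of each tested probe of the 8 members with several tested probes, with 95% confidence intervals (square for the brightest probe, circles for the others). The probes of *Mmp13* range from -0.36 to 0.20, and the intervals of probes of 1 gene overlap in all 8 genes.

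*Mmp1a* and *Mmp1b* are the mouse counterparts of human interstitial collagenase and are close copies of each other, so a probe may read both. *Mmp1a* read 5.97, 5.63 and 6.03 in control cultures and 5.54, 5.46 and 5.25 after PTH. All PTH arrays were lower, with a log2 fold change of -0.46 (SE 0.15, 95% interval -0.82 to -0.10), and it did not pass (limma adjusted p = 0.222). Without background correction the log2 fold change was -0.16. *Mmp12*, the macrophage elastase, had a log2 fold change of 0.22 with overlapping groups (limma adjusted p = 0.573). Of the 8 macrophage markers 7 had a log2 fold change below 0 with a median of -0.15, and 4 were lower on every PTH array (*Emr1*, *Mrc1*, *C1qa* and *C1qb*, -0.27 to -0.80), although none was called. Their summed signal, 41314 to 42597 without PTH and 39286 to 43872 with it, overlapped. The part of these cells in the *Mmp12* values was not tested.

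Among the membrane-bound MMPs, which act at the cell surface, 5 of 7 were tested and none was called. *Mmp14*, also MT1-MMP, activates the proenzyme of *Mmp2* and is needed for normal bone and osteocyte processes. It read 12.39, 12.28 and 12.20 without PTH and 12.51, 12.61 and 12.47 with it. All PTH arrays were slightly higher, by a log2 fold change of 0.24 (SE 0.12, 95% interval -0.04 to 0.52, limma adjusted p = 0.415). *Mmp16*, also MT3-MMP, read 5.19, 5.11 and 5.69 without PTH and 5.91, 5.79 and 6.14 with PTH. PTH replicate 2 lay just above control replicate 3, and the log2 fold change of 0.62 (SE 0.19, 95% interval 0.19 to 1.05) did not pass (limma adjusted p = 0.176) and was 0.21 without background correction, with a second probe at 0.48 (limma adjusted p = 0.411). *Mmp17*, *Mmp23* and *Mmp24* had log2 fold changes of 0.05, -0.25 and 0.04, and *Mmp15* was not tested.

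*Mmp11*, stromelysin-3, was above background on 3 control arrays and 1 PTH array. Its log2 fold change was -0.57 with overlapping groups (limma adjusted p = 0.312). The other stromelysins and matrilysin, *Mmp3*, *Mmp10* and *Mmp7*, were not tested. *Mmp28*, epilysin, lay close to the background with a wide interval of -1.10 to 0.35.

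The shedding ADAMs differed little between the groups, and none of the 7 tested was called. *Adam17*, which sheds tumour necrosis factor and ligands of the EGF receptor, read 7.85, 8.15 and 7.95 in control cultures and 8.09, 8.29 and 8.11 after PTH (log2 fold change 0.18, 95% interval -0.13 to 0.49, limma adjusted p = 0.61). The groups overlapped. *Adam10*, which cleaves Notch receptors, read 4.98, 5.29 and 5.25 without PTH and 5.04, 5.17 and 5.24 with it, close to the background on all arrays and above it on 4 of 6. The 95% interval of its log2 difference was -0.34 to 0.29. *Adam9*, a widely expressed shedding ADAM, was slightly higher on every PTH array, with 9.52, 9.41 and 9.68 without PTH and 9.69, 9.68 and 10.12 with it (log2 fold change 0.30, 95% interval -0.08 to 0.67, limma adjusted p = 0.457).

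*Adam12*, which cleaves binding proteins of insulin-like growth factors, *Adam15* and *Adam19*, which sheds neuregulins, had log2 fold changes of 0.28, -0.16 and -0.05 with overlapping groups. *Adam22*, which lacks a working catalytic site and binds ligands in the nervous system, read close to the background with a log2 fold change of -0.37 (limma adjusted p = 0.483). For *Adam32* only a bound can be given. Its mean of 5.50 on the PTH arrays was at least 1.37-fold higher than on the control arrays, where each array's dimmest probe still above background, or the probe itself if brighter, stands for the unseen level. This bound compares means and leaves out the spread between arrays. *Adam32* passed the detection filter through the PTH arrays alone. Its measured control mean was 4.99, the groups overlapped, and it did not pass (limma adjusted p = 0.289).

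Of the inhibitors 4 of 5 were tested, and *Timp4* was above background on no array. *Timp1*, an inhibitor of most MMPs that many cells secrete, read 15.16, 15.16 and 15.29 without PTH and 15.32, 15.34 and 15.42 with PTH. All PTH arrays were higher by a small margin, with a log2 fold change of 0.16 (SE 0.12, 95% interval -0.11 to 0.43, limma adjusted p = 0.608) that was 0.051 under cyclic loess, and a second probe gave 0.15 with overlapping groups. Like *Mmp13*, *Timp1* was among the brightest probes, between ranks 4 and 14 of the array, so its normalized values are set by a few ranks.

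*Timp2*, which also takes part in the activation of *Mmp2* by *Mmp14*, read 11.69, 11.71 and 11.65 in control cultures and 11.48, 11.54 and 11.48 after PTH. The groups were tight and apart, yet the log2 fold change was only -0.18 (SE 0.11, 95% interval -0.44 to 0.08, limma adjusted p = 0.52), and under median scaling it was -0.044. *Timp3*, which binds to the matrix and inhibits ADAMs and ADAMTSs as well, read 12.83, 13.09 and 12.91 without PTH and 13.24, 13.22 and 13.02 with it. PTH replicate 3 overlapped the control arrays, and the log2 fold change was 0.21 (95% interval -0.10 to 0.53, limma adjusted p = 0.527).

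*Reck*, a membrane-anchored inhibitor of several MMPs and of *Adam10*, read 6.48, 6.85 and 6.50 without PTH and 6.57, 6.35 and 6.10 with it, by its brightest probe. The groups overlapped (log2 fold change -0.27, 95% interval -0.66 to 0.13, limma adjusted p = 0.537). Its second probe was lower on every PTH array, with a log2 fold change of -0.50 (95% interval -0.91 to -0.09, limma adjusted p = 0.239). The intervals of *Timp2*, *Timp3* and *Reck*, by the probe used, excluded a 2-fold change in either direction. That of *Timp1* did so too, but its probe lies near the top of the normalized scale. A rise had little room to show there, so its interval does not speak to a 2-fold increase.

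Genes that act with these proteases were taken from lists outside the families that were drawn up with earlier results known, with 51 tested of 74 on the array. Of these 4 were called higher and 2 lower, or 11.8%, where 1.73% of all genes were called, and the median log2 fold change was -0.036. Among activators 1 of 7 was called. *Plat*, the tissue plasminogen activator, which makes the plasmin that activates several proMMPs, rose from 8.33, 8.36 and 8.25 to 8.95, 9.0 and 8.89 (log2 fold change 0.63, limma adjusted p = 0.0433). Furin, the convertase that removes the propeptides of ADAMs, ADAMTSs and membrane-bound MMPs, had a log2 fold change of -0.17 with overlapping groups.

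Among 16 matrix substrates 2 rose and 1 fell. *Dcn*, decorin, a proteoglycan bound to collagen fibrils, rose from 10.39, 10.41 and 10.46 to 11.15, 11.27 and 11.32 (log2 fold change 0.83, limma adjusted p = 0.0181). *Col3a1*, type III collagen, rose by 0.92 on the log2 scale (limma adjusted p = 0.0211). Aggrecan, listed by its older symbol *Agc1* and the substrate of *Adamts4* and *Adamts5*, read 5.64, 5.71 and 5.85 on the control arrays and was above background on no PTH array, where it read 4.83, 4.54 and 4.67. It was at least 1.59-fold lower with PTH, and it passed the detection filter through the control arrays alone. The limma adjusted p of 0.0114 belongs to the measured log2 fold change of -1.06, which uses PTH readings below background, and not to this bound. Of the 5 tested cartilage markers of 8, of which aggrecan is one, 3 were lower on every PTH array, aggrecan, *Col2a1*, type II collagen (log2 fold change -0.47, limma adjusted p = 0.169), and *Col10a1*, type X collagen (-0.90, limma adjusted p = 0.0918). The cartilage factor *Sox9* was higher on every PTH array (0.32, limma adjusted p = 0.233), *Comp* overlapped, and the median log2 fold change was -0.47. The summed linear normalized signal of these 5 markers was higher with PTH, at 944 to 963 without it and 985 to 1001 with it. Most of this sum is the signal of *Sox9*, the brightest of the 5 probes (mean of 9.23 without PTH and 9.55 with it). The next brightest, *Col2a1*, had means of 7.69 and 7.22. The sum thus follows *Sox9* and not the markers that were lower. Versican, listed as *Cspg2*, had a log2 fold change of 0.45 that did not pass (limma adjusted p = 0.198).

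Of 8 other inhibitors and clearance genes *Rarres1*, a gene known for its response to retinoids, fell by 0.87 on the log2 scale (limma adjusted p = 0.0489). Of 10 shed membrane proteins *Tnfsf11*, the gene of RANKL, rose by 1.49 on the log2 scale (limma adjusted p = 0.0298), while *Cd44*, the hyaluronan receptor, *Csf1*, the macrophage growth factor, and *Notch1* did not pass. None of 10 factors known to act on the *Mmp13* promoter was called with limma, and *Fos* came nearest, with 8.91, 8.83 and 8.81 without PTH and 9.38, 9.32 and 9.41 with PTH (log2 fold change 0.52, limma adjusted p = 0.0788). At an unadjusted p under 0.05 *Fos* and *Ep300* (log2 fold change -0.44) would have passed. *Runx2* was on the array but not tested. Calls in the lists outside the families fell from 6 to 2 without PTH replicate 1, to 1 without each of the control arrays and to 0 without PTH replicate 2 or PTH replicate 3.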

How the data were processed

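Total RNA was labelled and hybridized to Illumina mouse bead arrays, 3 control and 3 PTH. Per the labels the arrays were read with GenomeStudio. The authors deposited the linear signal intensity of each probe, neither normalized nor background subtracted, and beside it a detection p-value against the array's negative controls.

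From these, neqc (limma 3.58.1, R 4.3.3) was run with an offset of 16, followed by lmFit and eBayes on 16214 probes (11979 genes). Intervals are 95% limma intervals. Precision is limited by having 3 arrays a group, where the smallest p of an exact two-sided permutation test of 1 gene is 0.1. A signal not above background on any array of a group was given as a bound. Of 78 member symbols 75 are current in RefSeq (GRCm38.p6) and 3 are older names. Promoter sequences are RefSeq's, cut at the gene start.

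Members and lists were chosen with earlier results of these data known. Named with values were called members, members whose groups did not overlap, and a fixed list of 14 genes. Other members were given by single values, and genes of the other lists were named after their values were seen. Alternatives were other normalizations, detection filters and probe rules, a looser threshold, the replicate number as a block, and each array left out. No slide is named in the labels or columns, so no slide block was run.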

Additional observations from a re-analysis of the deposited data

How the results depend on the processing

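*Adamts4* and *Mmp9* were the members called higher, 2 in number, under quantile normalization without background correction, an offset of 50, cyclic loess, detection on all 6 arrays at the stricter threshold of 0.01, the mean of all tested probes and an adjusted p under 0.1. The number fell to 1 under median scaling and with no detection filter, both times *Adamts4*, and lay between 0 and 1 without 1 array. The number called lower was 0 in all of these but detection on all 6 arrays, where it was 1 (*Adamts9*). Median scaling raised the log2 fold change of the median gene to 0.12 and gave 62 higher and 41 lower genes of all tested, in place of 82 and 125, with a member median of 0.16 and 6 members whose groups did not overlap in place of 11 (11.4% of all genes in place of 21.9%). The member median was -0.0079 with no detection filter, 0.048 with detection on all 6 arrays and -0.018 with the mean of all probes, and -0.016 to 0.074 without 1 array, when between 13 and 18 members, and 29.5% to 34.4% of all genes, did not overlap. The 6 calls in the lists outside the families became 14 under quantile normalization without background correction, 12 with an offset of 50, 10 with detection on all 6 arrays, 10 at an adjusted p under 0.1, 3 under median scaling and 0 to 2 without 1 array. The log2 fold change of *Adam10* turned to 0.0087 under median scaling and lay between -0.12 and 0.031 without 1 array. That of *Mmp2* turned to 0.17 under median scaling and 0.010 under cyclic loess, and lay between -0.10 and 0.042 without 1 array. Among other members named with values on each array, median scaling gave 0.46 for *Adam9*, 0.42 for *Mmp14*, 0.39 for *Timp3* and 0.31 for *Adam17*. An offset of 50 gave 0.40 for *Adamts1*, 0.36 for *Mmp16* and -0.27 for *Mmp1a*, and no background correction gave 0.27 for *Adamts5* and -0.13 for *Reck*. Without 1 array *Adam9* was 0.15 (without PTH replicate 3), *Reck* -0.15 (without control replicate 2 or PTH replicate 3) and *Adam17* 0.11 (without control replicate 1) and 0.12 (without PTH replicate 2). For these changes with the setting the cause was not tested. The labels do not say whether replicate numbers pair the arrays. Same-numbered arrays deviated together with r = 0.067, 0.064 and 0.27 for replicates 1, 2 and 3. The other pairs with a replicate 3 had r of -0.14 to -0.13. Control replicate 1 with PTH replicate 2 gave r = 0.073 and control replicate 2 with PTH replicate 1 gave 0.070. Probes above background numbered 15758, 16451 and 17369 in control replicates 1 to 3, and 15504, 16352 and 17374 in PTH replicates 1 to 3. These values do not settle whether the arrays are paired. With the replicate number as a block 0 members were called higher (limma adjusted p = 0.063 for *Adamts4* and 0.0779 for *Mmp9*), 0 lower, 1 gene of the lists outside the families, and 19 higher and 25 lower over all genes. Calls over all genes were 273 higher and 315 lower under quantile normalization without background correction, 181 and 220 with an offset of 50, 157 and 183 with detection on all 6 arrays, 191 and 217 at an adjusted p under 0.1, and 50 to 78 in all without 1 array. Probes near the background, such as those of *Adam10*, *Adamts1* and *Adamts8*, limit what could be seen of these genes.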
